A study of Homo sapiens with 24 samples.

Results

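MicroRNA host genes are long non-coding transcription units that carry one or more microRNA hairpins in an exon or an intron. They were taken here as every annotated gene whose symbol begins with MIR and ends with HG, which includes the hosts of the let-7 microRNAs. The GENCODE annotation held 84 such genes, and all 84 were in the count table of 61533 genes. Of these, 45 had at least 10 counts in 2 or more of the 24 libraries, and 44 of the 45 passed the low-count filter of the statistical fit; the exception was MIR194-2HG. The remaining 39 hosts were at or near 0. The reads were counted over exons, so every value below describes the newly made host transcript and not the mature microRNA.

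The libraries came from 4sU-seq, in which cells take up 4-thiouridine, the labelled RNA is biotinylated and pulled down, and the RNA made during the labelling period is sequenced. The cells were U2OS, a human osteosarcoma line with very little endogenous glucocorticoid receptor (GR), that stably expressed GR with a C-terminal HaloTag. There were 3 lines, namely wt GR, SoF GR (K492A, a mutant with reduced RNA affinity) and Ctrl GR (R470A, a mutant with a reduced DNA affinity similar to that of SoF GR). Each line was 1 pool of cells, made with the PiggyBac transposon, selected with puromycin and sorted by its HaloTag signal, so the receptor form and the pool cannot be told apart. Every line was measured at 0, 1, 2 and 3 h of 100 nM dexamethasone, a synthetic glucocorticoid, with 2 libraries a group. The 0 h cells received 0.01% ethanol instead, and all groups received 200 µM 4-thiouridine for the final hour. Medium was replaced at the start of treatment, the time in ethanol is not stated, and no later time had an ethanol group. Hours of dexamethasone and hours since the change of medium therefore cannot be told apart.

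Most microRNAs are cut from a long primary transcript by the nuclear enzyme DROSHA with its partner DGCR8, exported by XPO5 and trimmed by DICER1 to a short mature strand that guides an Argonaute protein. Bases 2 to 8 of that strand, the seed, pair with target mRNAs, and microRNAs with the same seed share many targets. The host transcript is the precursor or shares its promoter, which is why its synthesis is often read as the first step of microRNA production.

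Library totals ran from 8106036 to 15820806 counts, and the hosts together took 0.207 to 0.301% of them. The cells held the osteoblast-lineage genes RUNX2 and SPARC at mean levels of 102 and 267 CPM (counts scaled to a normalised library size of 1000000), whereas COL1A2 and TWIST1, of the same list, were at or near 0. Of 6 markers of other cell types the highest was the cadherin CDH1 at a mean of 4.22 CPM. The glucocorticoid targets FKBP5, TSC22D3, PER1 and ZBTB16 were all higher at 3 h than at 0 h, with log2 changes of 3.06, 1.49, 1.09 and 6.03. The median absolute log2 gap over the hosts between the 2 libraries of a group was 0.28 in wt GR, 0.38 in SoF GR and 0.41 in Ctrl GR at 0 h, and 0.18 to 0.36 in the other groups. For several falling hosts the 0 h library numbered 2 of the SoF GR and Ctrl GR lines was about as high as the 1 h libraries while the one numbered 1 was lower. Where a host change printed below for the average over lines lost its call without one set of 0 h libraries, that value is given beside it. Genes other than the hosts were not checked in this way. All comparisons with 0 h share those 6 libraries. In bulk RNA, fewer cells making a transcript and less RNA made per cell cannot be told apart.

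The mature microRNAs of the hosts on which the results turn are shown with the seed in capitals, as RefSeq gives them on GRCh38.p14. The let-7 seed is carried by 7 microRNAs within 6 tested hosts, and they are shown because their hosts moved in different directions.
hsa-let-7a-5p: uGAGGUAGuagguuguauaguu
hsa-let-7b-5p: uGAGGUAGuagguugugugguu
hsa-let-7c-5p: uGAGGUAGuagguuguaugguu
hsa-let-7d-5p: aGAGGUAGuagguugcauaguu
hsa-let-7f-5p: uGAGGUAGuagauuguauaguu
hsa-let-7i-5p: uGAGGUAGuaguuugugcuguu
hsa-miR-4458: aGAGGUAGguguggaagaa

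The sister hosts MIR100HG and MIR99AHG each pair a let-7 microRNA with a copy of miR-125b and with a member of the miR-99 family, so the following strands are shown for both.
hsa-miR-100-5p: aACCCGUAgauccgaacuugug
hsa-miR-99a-5p: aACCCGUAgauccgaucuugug
hsa-miR-125b-5p: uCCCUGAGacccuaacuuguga

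MIR17HG holds 6 hairpins in its exons, the miR-17-92 cluster, with 4 different seeds among the 6 strands shown.
hsa-miR-17-5p: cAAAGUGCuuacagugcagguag
hsa-miR-20a-5p: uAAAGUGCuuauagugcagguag
hsa-miR-18a-5p: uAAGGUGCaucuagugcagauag
hsa-miR-19a-3p: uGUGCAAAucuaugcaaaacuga
hsa-miR-19b-3p: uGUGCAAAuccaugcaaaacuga
hsa-miR-92a-3p: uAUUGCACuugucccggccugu

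The last set belongs to hosts that were higher after dexamethasone, to hosts that differed between the lines, and to MIR22HG.
hsa-miR-193b-3p: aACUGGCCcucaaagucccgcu
hsa-miR-365a-3p: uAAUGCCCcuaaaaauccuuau
hsa-miR-210-3p: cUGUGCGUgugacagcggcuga
hsa-miR-146a-5p: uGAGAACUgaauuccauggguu
hsa-miR-29b-3p: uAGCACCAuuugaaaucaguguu
hsa-miR-29c-3p: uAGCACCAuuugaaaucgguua
hsa-miR-155-5p: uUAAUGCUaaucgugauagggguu
hsa-miR-9-5p: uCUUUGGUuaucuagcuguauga
hsa-miR-22-3p: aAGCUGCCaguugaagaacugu

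Host levels ranged widely. Per kilobase of exon the highest were MIR663AHG at 124, MIR222HG at 77.2, MIR22HG at 41.1, MIRLET7A1HG at 27.5 and MIR23AHG at 15.6 CPM per kb, as means over 24 libraries. MIR663AHG lies in repeated sequence near the centromere of chromosome 20, and its reads may be shared with near-identical copies. It was also the least even of the abundant hosts, since the 0 h libraries of wt GR had 1690 and 704 CPM. Its 3 h change of -0.30 did not pass (adjusted p = 0.169, edgeR), but was -0.67 and called without the 0 h libraries numbered 2, -0.46 and -0.43 and called without 0 h replicate 2 of wt GR or SoF GR alone, 0.23 without those numbered 1, and called at -0.30 without the low-count filter. MIR222HG, the host of miR-221 and miR-222, and MIR23AHG, the host of miR-23a, miR-27a and miR-24-2, are known for roles in growth control. At the other end, 3 hosts had no count in any library, namely MIR200CHG, MIR202HG and MIR7515HG. MIR200CHG carries miR-200c and miR-141, which are typical of epithelial cells. With a floor of 3 counts, 0 in the shallowest library (8106036 counts) allows up to 0.37 CPM. This limit covers counting error only, whereas the intervals of log2 changes below also hold the spread between libraries.

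The first question was how host synthesis changed over the hours of dexamethasone. Averaged over the 3 lines, 24 of 44 hosts had changed at 3 h, 7 higher and 17 lower (edgeR quasi-likelihood test, Benjamini-Hochberg adjusted p under 0.05 over 23651 genes). That is 54.5% of the hosts beside 40.3% of all genes tested, of which 20.9% were higher and 19.3% lower. The median log2 change was -0.22 over the hosts and -0.03 over all genes. At 2 h, 18 hosts had changed (7 higher, 11 lower), beside 28.8% of all genes (16.2% higher, 12.6% lower). At 1 h the only host called was MIR3936HG, beside 1.28% of all genes. With the 1 h libraries as the reference instead, 27 hosts were called at 3 h, beside 50.6% of all genes. The labels do not say that the libraries of a group came from separate cultures, so the p-values measure the spread between these libraries, which may be technical. The study also states that replicate pairs were biotinylated and pulled down together. If the 2 libraries of a group shared a pulldown, this spread leaves out variation between pulldowns. Such variation then cannot be told apart from line and time.

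**Figure D1:**
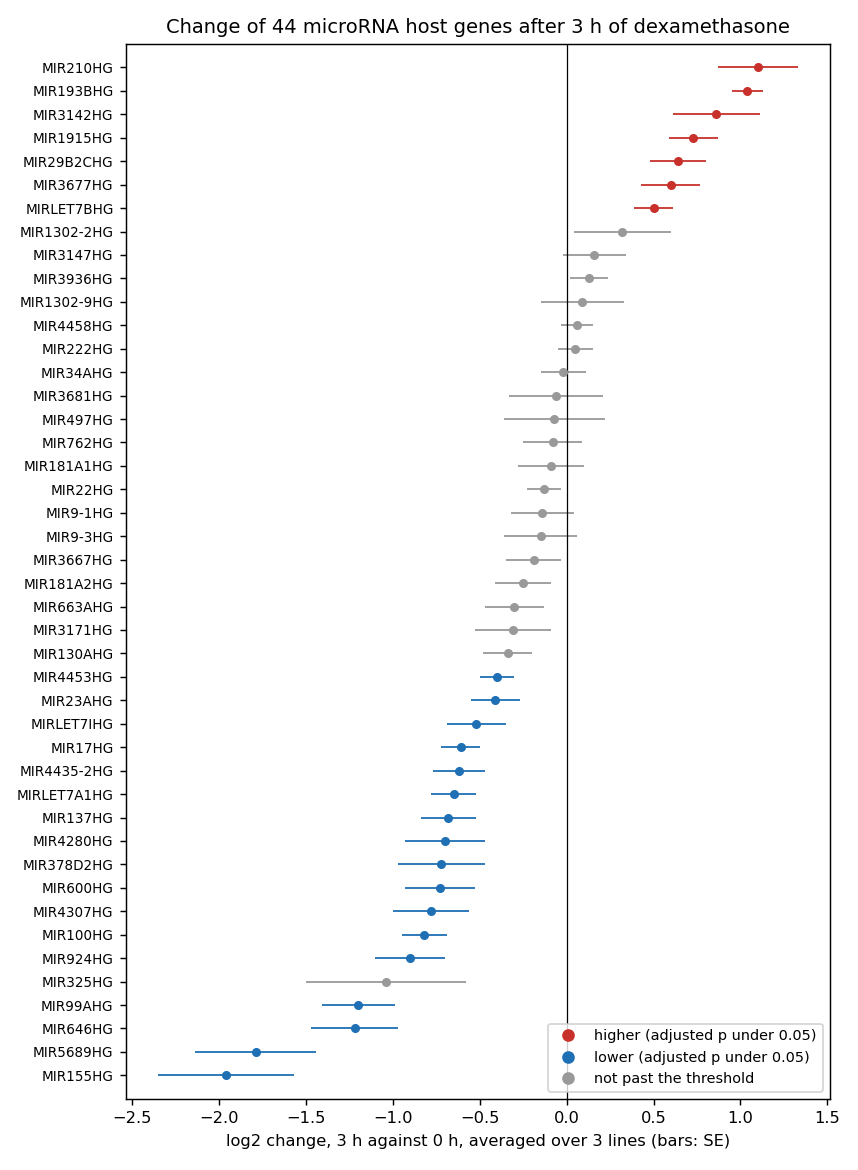
Log2 change of the 44 tested hosts at 3 h against 0 h, averaged over 3 lines, with bars of 1 SE; red and blue mark changes past the threshold. The 7 hosts that were higher lie between 0.50 and 1.10, and the 17 that were lower between -0.40 and -1.96.

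MIR22HG (chr17:1711447-1717174, minus strand) carries the tumour-suppressor microRNA miR-22 in an exon. In wt GR it had 158 and 138 CPM at 0 h and 123 and 134 CPM at 3 h. In SoF GR it had 145 and 108 CPM at 0 h and 113 and 119 CPM at 3 h, and in Ctrl GR 107 and 129 CPM at 0 h and 107 and 121 CPM at 3 h. Over the 6 libraries of each time, pooled over lines, the ranges overlapped in every comparison of times. In wt GR alone both 3 h libraries lay below both 0 h libraries. The 3 h change averaged over lines, -0.13 (SE 0.10, adjusted p = 0.316 by the edgeR quasi-likelihood test), did not pass, with a 95% interval from -0.32 to 0.07.

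MIR17HG (chr13:91347686-91397592, plus strand), the oncogenic miR-17-92 host and a target of MYC, fell late. In wt GR it had 71.5 and 68.8 CPM at 0 h and 60.1 and 53.5 CPM at 3 h. In SoF GR it went from 80.7 and 84.3 to 45.3 and 49.7 CPM, and in Ctrl GR from 72.2 and 85.6 to 41.9 and 52.6 CPM. All 6 libraries at 3 h were below all 6 at 0 h. The mean was 77.2 ± 7.24 CPM at 0 h and 50.5 ± 6.42 CPM at 3 h (SD, n = 6 over the lines), a log2 change of -0.61 (SE 0.11, adjusted p = 0.000163, edgeR quasi-likelihood test). At 1 and 2 h its log2 changes of 0.28 and 0.04 did not pass, and the 2 h libraries, at 68.8 to 89.7 CPM, all lay above those at 3 h.

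**Figure D2:**
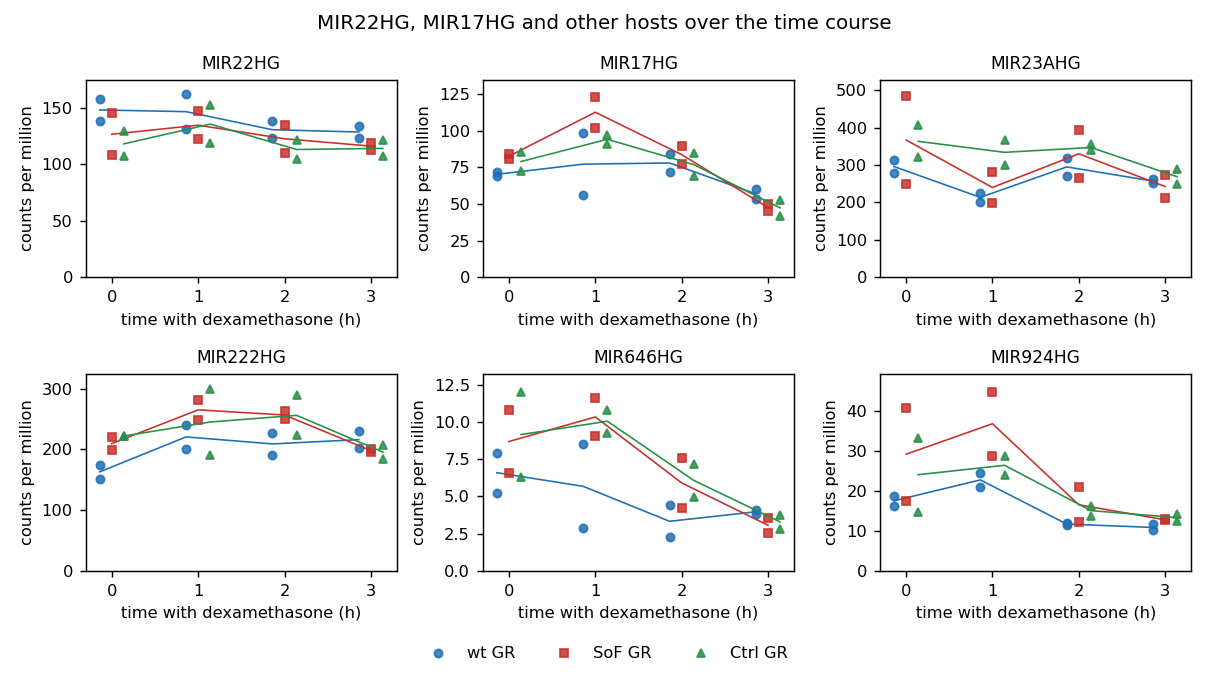
Levels in CPM of 6 hosts by hours of dexamethasone; points are single libraries, lines join the mean of 2 libraries, and wt GR is blue, SoF GR red and Ctrl GR green. MIR22HG stays between 105 and 162 CPM, and MIR17HG is at 41.9 to 60.1 CPM at 3 h.

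Of the 7 hosts that rose, MIR193BHG (chr16:14301389-14331067, plus strand) was the most precisely measured. It carries miR-193b and miR-365a in introns, microRNAs known from fat and muscle differentiation. In wt GR it had 10.7 and 11.4 CPM at 0 h, 15.7 and 15.5 at 2 h and 21.3 and 22 at 3 h. In SoF GR it had 11.6 and 14.6 CPM at 0 h and 29 and 24.4 at 3 h. In Ctrl GR it had 16.4 and 14.5 CPM at 0 h and 35 and 32.9 at 3 h. Its 1 h change of 0.06 did not pass (adjusted p = 0.805), and its level was higher at 2 h and higher again at 3 h in every line. The log2 change at 3 h was 1.04 (SE 0.09, adjusted p = 1.86e-08, edgeR quasi-likelihood test), a 2.06-fold rise. It was also the only host called in each line taken alone.

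MIR210HG (chr11:565657-568457, minus strand), the host of the hypoxia-induced miR-210, rose by 1.10 (SE 0.23) from a median of 1.58 CPM at 0 h to 3.63 CPM at 3 h. Its libraries held 5 to 63 counts, and the ranges of 0.589 to 2.83 CPM at 0 h and 2.38 to 4.56 CPM at 3 h overlapped. MIR3142HG (chr5:160438594-160487426, plus strand), the host of miR-146a, which restrains NF-κB signalling, rose by 0.86 (SE 0.25). It was at 3.06 to 9.17 CPM at 0 h and at 9.72 to 13.6 CPM at 3 h, with no overlap. The 1 h libraries of MIR3142HG lay lower still, at 1.99 to 6.53 CPM, although the 1 h change of -0.72 did not pass (adjusted p = 0.24, edgeR). Without the 0 h libraries numbered 2 its 3 h change was 0.49 and no longer passed, and its 2 h change went from 0.90 to 0.51 with the same loss.

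MIR1915HG (chr10:21490272-21497260, minus strand) rose by 0.73 (SE 0.14), from 9.52 to 23.5 CPM at 0 h to 23.2 to 28.4 CPM at 3 h. One 0 h library of wt GR, at 23.5 CPM, reached the 3 h range. MIR29B2CHG (chr1:207760650-207879115, minus strand), the host of miR-29b-2 and miR-29c, which repress collagen mRNAs, rose by 0.64 (SE 0.16) from a median of 11.3 to one of 17.2 CPM. Its ranges overlapped, and its change did not pass without the 0 h libraries numbered 1 (0.36) or against 1 h (0.22). MIR3677HG rose by 0.60 (SE 0.17) from a median of 5.01 to one of 6.49 CPM with no overlap between 0 h and 3 h, but its change was 0.42 and not called without the 0 h libraries numbered 2. The exons of MIR29B2CHG overlap CD46 on the other strand, which fell (log2 change -0.34), and those of MIR3677HG overlap RNPS1 (-0.18, not called).

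**Figure D3:**
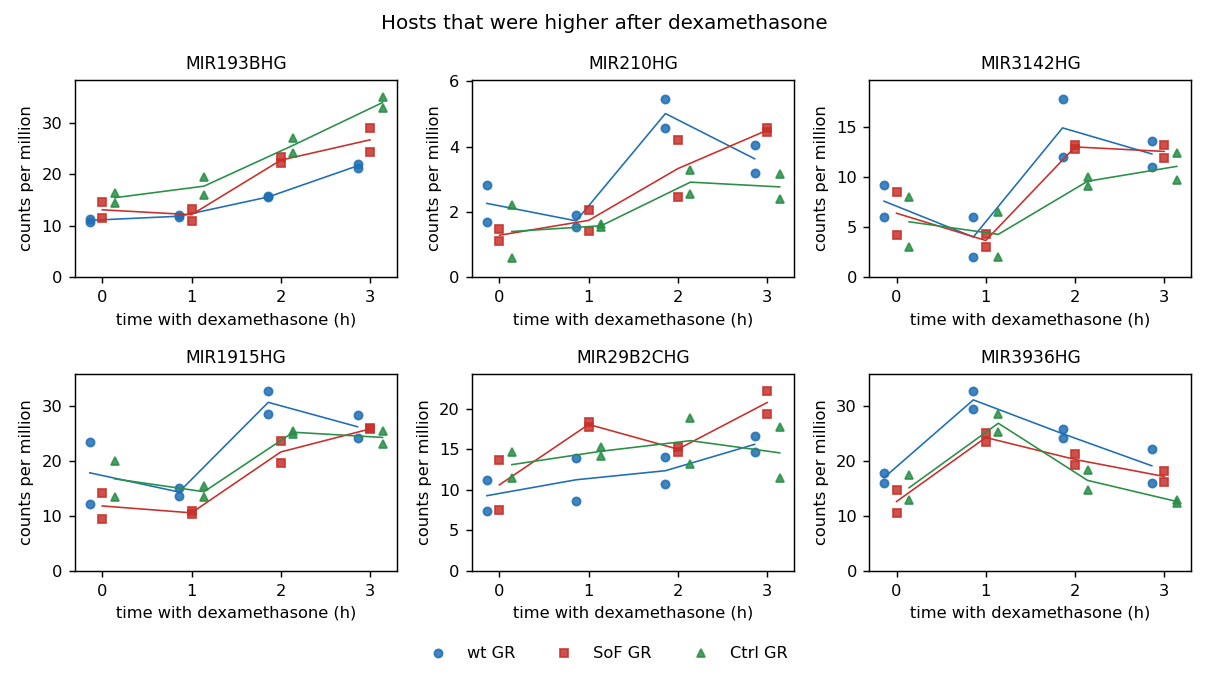
Levels in CPM of 6 hosts by hours of dexamethasone, drawn as single libraries with lines through the means of 2; wt GR blue, SoF GR red, Ctrl GR green. MIR193BHG reaches 21.3 to 35 CPM at 3 h against 10.7 to 16.4 at 0 h, and MIR3936HG peaks at 1 h with 23.5 to 32.8 CPM.

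MIR3936HG (chr5:132311285-132370170, minus strand) followed another course. Its 6 libraries were at 10.5 to 17.9 CPM at 0 h, at 23.5 to 32.8 CPM at 1 h, at 14.7 to 25.8 CPM at 2 h and at 12.4 to 22.2 CPM at 3 h. All 1 h libraries lay above all 0 h libraries, and the 2 h libraries lay below the 1 h ones by a log2 change of -0.43 (adjusted p = 0.0032, edgeR). The log2 change was 0.89 (SE 0.11, adjusted p = 6.3e-05, edgeR quasi-likelihood test) at 1 h, 0.46 (SE 0.11; 0.27 and not called without the 0 h libraries numbered 1) at 2 h and 0.13 (SE 0.11, adjusted p = 0.394) at 3 h. Its exons overlap SLC22A4 and SLC22A5, transporters of carnitine and organic cations on the other strand, which were higher at 3 h by 0.51 and 0.98. The counts were labelled as stranded, but how strand was set is not given in the sources used here, so a share of antisense reads was not tested.

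The hosts of microRNAs with the let-7 seed, which restrain growth-promoting genes, moved in both directions. MIRLET7BHG (chr22:46053869-46113928, plus strand), which carries let-7a-3 and let-7b in exons, rose. MIRLET7A1HG (chr9:94166258-94200905, plus strand), MIR100HG (chr11:122028325-122556721, minus strand), MIR99AHG (chr21:15928296-16646364, plus strand) and MIRLET7IHG (chr12:62602752-62622213, plus strand) fell. MIR4458HG, whose microRNA shares the seed, had a log2 change of 0.06 (95% interval -0.12 to 0.24). As shown by the sequences above, one mature strand, let-7a-5p, is encoded in a host that rose and in 2 hosts that fell.

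MIRLET7BHG had 57.6 and 48.6 CPM in wt GR at 0 h and 75 and 78 CPM at 3 h. In SoF GR it went from 52.9 and 44.9 to 84.7 and 72.1 CPM, and in Ctrl GR from 76.2 and 57.6 to 90.1 and 75.6 CPM. One 0 h library of Ctrl GR lay inside the 3 h range, and 11 of the 12 pairings of a 3 h with a 0 h library of the same line were higher. Its log2 change was 0.69 (SE 0.11) at 2 h and 0.50 (SE 0.11, adjusted p = 0.000758, edgeR quasi-likelihood test) at 3 h. Some of its reads may belong to PRR34-AS1, which overlaps it on the same strand and was higher by 0.96.

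MIRLET7A1HG, with let-7a-1, let-7f-1 and let-7d in its exons, had 111 and 133 CPM in wt GR at 0 h and 88.4 and 86.4 CPM at 3 h. It went from 135 and 150 to 88.4 and 83.9 CPM in SoF GR, and from 116 and 187 to 88.5 and 91.4 CPM in Ctrl GR. The 3 h libraries were nearly identical across lines, at 87.8 ± 2.5 CPM (SD, n = 6), and all lay below the lowest 0 h library. At 1 h it had reached 120 to 268 CPM, a log2 change of 0.42 that did not pass (adjusted p = 0.125, edgeR). Against 0 h it was lower by 0.49 at 2 h (-0.29 and not called without the 0 h libraries numbered 2) and by 0.65 (SE 0.13, adjusted p = 0.000319, edgeR) at 3 h. Against 1 h the changes were -0.91 at 2 h and -1.07 at 3 h.

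The sister hosts fell together. MIR100HG was at 42.2 to 93.8 CPM at 0 h and at 29.2 to 49 CPM at 3 h, and every 3 h library was below both 0 h libraries of its own line (12 of 12 pairings). Its log2 change was -0.74 at 2 h and -0.82 (SE 0.13, adjusted p = 2.97e-05, edgeR) at 3 h. The exons of MIR100HG overlap BLID on the same strand (log2 change -0.96 at 3 h, not called), and reads of this pair may not be separable. MIR99AHG went from 10.9 to 30 CPM at 0 h to 6.3 to 8.79 CPM at 3 h with no overlap, a log2 change of -1.20 (SE 0.21, adjusted p = 0.000121). Its 2 h change of -0.98 became -0.44 and was not called without the 0 h libraries numbered 2. MIRLET7IHG was lower by the least, at -0.52 (SE 0.17, adjusted p = 0.0218), with overlapping ranges of 7.89 to 18.6 and 6.56 to 9.69 CPM. Its call was lost without 0 h replicate 2 of wt GR (-0.43), SoF GR (-0.40) or Ctrl GR (-0.29), or without wt GR 3 h replicate 1, SoF GR 3 h replicate 2 or Ctrl GR 3 h replicate 2 (-0.46 each), and its change was -0.10 without all 0 h libraries numbered 2.

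**Figure D4:**
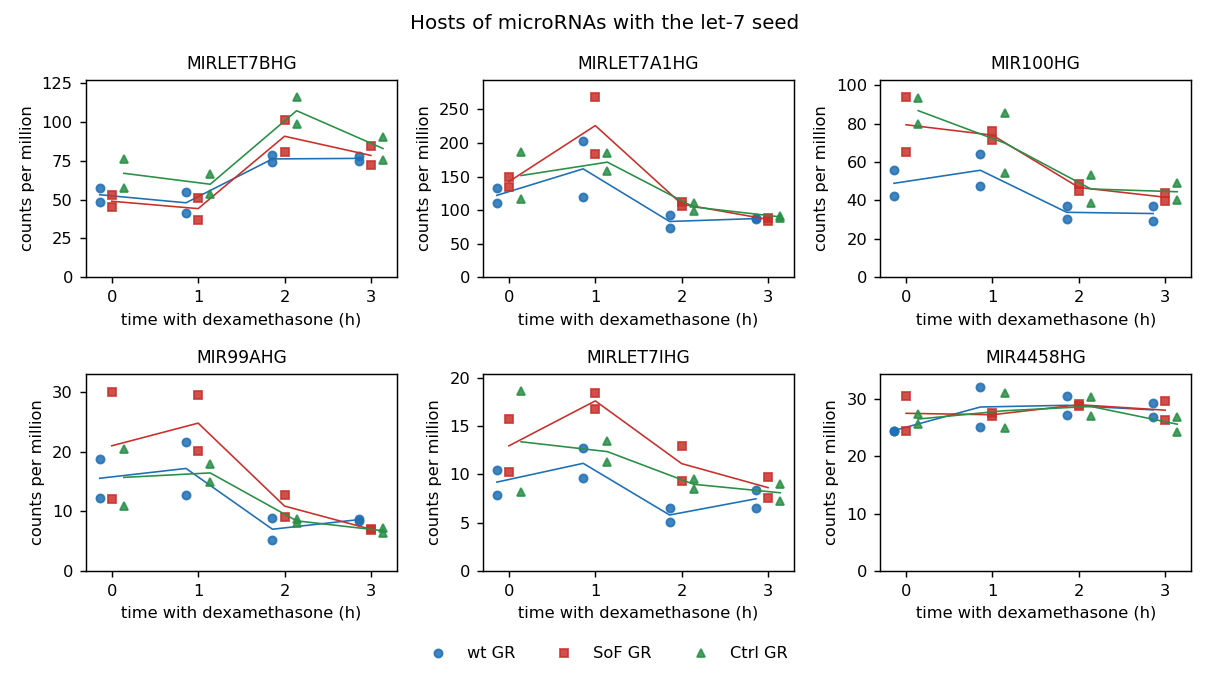
Levels in CPM of 6 hosts of microRNAs with the let-7 seed by hours of dexamethasone; points are single libraries, lines join means of 2, wt GR blue, SoF GR red, Ctrl GR green. MIRLET7BHG is at 72.1 to 90.1 CPM at 3 h, MIRLET7A1HG at 83.9 to 91.4 CPM, and MIR4458HG stays between 24.3 and 32.1 CPM throughout.

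Among the other hosts that fell, MIR155HG (chr21:25561810-25575168, plus strand) had few counts. It carries miR-155, an inflammatory and oncogenic microRNA of immune cells, in an exon. Over the 0, 1, 2 and 3 h libraries in turn it had 37, 48, 32, 32, 35, 7, 23 and 15 counts in wt GR, 10, 9, 11, 5, 4, 1, 2 and 0 counts in SoF GR, and 37, 30, 33, 34, 15, 12, 11 and 12 counts in Ctrl GR. In each line both 3 h libraries had a lower CPM than both 0 h libraries, a log2 change of -1.96 (SE 0.39, adjusted p = 0.000387, edgeR quasi-likelihood test). By line the change was -1.16 in wt GR (not called), -3.13 in SoF GR, with 2 and 0 counts at 3 h, and -1.59 in Ctrl GR, and the mean was -3.01 without SoF GR 3 h replicate 1 and -1.67 without replicate 2, called in both. At 1 h its change was -0.02. MIR5689HG was lower by a similar amount at -1.79 (SE 0.35), from 0.824 to 2.41 CPM at 0 h to 0.18 to 0.602 CPM at 3 h. Its changes were -1.73 in wt GR and -1.90 in Ctrl GR, neither called alone, and -1.73 in SoF GR, which was. The SoF GR change was -1.79 and not called under DESeq2, and it ran from -2.12 to -1.28 leaving out 1 library. The exons of MIR5689HG overlap LINC00518 on the other strand (log2 change -1.01 at 3 h, not called).

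MIR646HG (-1.22) and MIR924HG (-0.90) span 566 and 593 kb of genome and fell without overlap between 0 h and 3 h. MIR646HG was at 5.26 to 12 CPM at 0 h and at 2.58 to 4.1 CPM at 3 h. MIR924HG was at 14.8 to 40.7 CPM at 0 h and at 10.1 to 14.2 CPM at 3 h, and its 0 h libraries of SoF GR differed widely, at 17.5 and 40.7 CPM. Without the 0 h libraries numbered 2 its change was -0.39 and did not pass. MIR137HG, the host of the neural miR-137, fell by 0.68, and its exons overlap DPYD on the same strand, which fell by 0.55. MIR600HG fell by 0.73 (-0.59 and not called without the 0 h libraries numbered 2) and shares exons with STRBP, which fell by 0.59. Reads of these overlapping pairs may not be separable.

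MIR4435-2HG (chr2:111006015-111523376, minus strand), an abundant lncRNA linked to cancer growth, fell by 0.62 (SE 0.15, adjusted p = 0.00192, edgeR) from a median of 397 to one of 306 CPM with overlapping ranges. Its change was -0.23 and not called without the 0 h libraries numbered 2. It overlaps the apoptosis gene BCL2L11 on the other strand, whose log2 change was also -0.62, and SOCAR (-1.58). On its own strand it overlaps ENSG00000285016, which fell by 1.37 (SE 0.17, adjusted p = 1.33e-06, edgeR), and reads of this pair may not be separable. MIR23AHG fell by 0.41 (SE 0.14, adjusted p = 0.0205) from a median of 317 to one of 257 CPM. That call was lost when SoF GR 0 h replicate 1 (-0.22), SoF GR 3 h replicate 2 (-0.35), Ctrl GR 0 h replicate 1 (-0.35) or Ctrl GR 3 h replicate 1 (-0.37) was left out, and its change was -0.14 without the 0 h libraries numbered 1 and -0.01 against 1 h. The exons of MIR23AHG overlap ZSWIM4 on the other strand (log2 change -0.32 at 3 h, not called). MIR4453HG fell by 0.40 without overlap, from 16.1 to 23.4 CPM to 11.8 to 16 CPM.

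The last 3 hosts that were lower rested on single libraries. MIR4307HG (-0.78) was not called without SoF GR 0 h replicate 2 (-0.52) or without all 0 h libraries numbered 2 (-0.32). MIR4280HG (-0.70) was not called without wt GR 0 h replicate 2 (-0.62), SoF GR 0 h replicate 2 (-0.60) or SoF GR 3 h replicate 2 (-0.63), or without all 0 h libraries numbered 2 (-0.48). MIR378D2HG (-0.72), at 0.355 to 2.11 CPM in all libraries, lost its call without replicate 1 of the 0 h or 3 h group of any line (-0.69 to -0.59), without all 0 h libraries numbered 1 (-0.54), without the low-count filter (adjusted p = 0.0645, edgeR) and under DESeq2 (-0.74).

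In all, 3 hosts had every 3 h library above every 0 h library, beside 9.89% of all genes tested, and 7 had every one below, beside 6.76%. Of the 24 hosts called at 3 h, all 7 that rose had a positive change in each of the 3 lines, and 16 of the 17 that fell had a negative one, the exception being MIR378D2HG in Ctrl GR at 0.07. The call was made on the average of these same 3 changes, so agreement of sign is not separate evidence. The matching share over all genes called is not given.

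Among hosts that did not pass at 3 h, MIR222HG had 152 to 222 CPM at 0 h and 184 to 230 CPM at 3 h. It was higher at 2 h by 0.29 (SE 0.10, adjusted p = 0.0375, edgeR), a call lost when any of 13 libraries was left out (0.22 to 0.31) or with RLE size factors (0.26), and without all 0 h libraries numbered 1 (0.22) or 2 (0.34), and its change was 0.05 at 3 h. MIR130AHG, the host of miR-130a, was lower at 2 h (log2 change -0.52, adjusted p = 0.00839; -0.33 and not called without the 0 h libraries numbered 2) and had a change of -0.34 (adjusted p = 0.0594) at 3 h. MIR34AHG, the host of the p53-induced miR-34a, had a 3 h change of -0.02 with a 95% interval from -0.27 to 0.23. MIR181A1HG and MIR181A2HG, 2 hosts with the same miR-181a and miR-181b strands, had 3 h changes of -0.09 and -0.25, neither past the threshold.

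The second question was whether the response to dexamethasone depended on the receptor form. Taken alone at 3 h, the lines had 1 host called in wt GR (beside 10.7% of all genes), 18 in SoF GR (beside 19.3%) and 7 in Ctrl GR (beside 14.2%). At 2 h the counts were 0, 5 and 4 (beside 4.6%, 5.68% and 7.95%), and at 1 h they were 0, 1 and 0 (beside 0.156%, 0.165% and 0.0465%). In wt GR, 4 of 44 hosts at 1 h and 13 at 2 h had an unadjusted p under 0.05, and 1 did in Ctrl GR at 1 h. Over all 23651 genes these counts were 2602, 4397 and 423. DESeq2 called 1, 2 and 0 hosts in these 3 comparisons, but its share over all genes is not given, so these counts cannot be set against it. The single host of wt GR at 3 h was MIR193BHG, whose log2 changes were 0.97, 1.03 and 1.13 in wt GR, SoF GR and Ctrl GR.

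These counts do not show a difference between the lines. In the test of the difference itself, the 3 h response of SoF GR minus that of wt GR was called for 0 of 44 hosts, as were Ctrl GR minus wt GR and SoF GR minus Ctrl GR (edgeR quasi-likelihood interaction contrasts; 0%, 0% and 0.0127% of all genes were called). At an unadjusted p under 0.05 there were 0, 1 (MIR222HG) and 2 (MIR378D2HG and MIR3936HG) hosts, beside 558, 845 and 671 of 23651 genes. DESeq2 called 0 hosts in each comparison, and its share over all genes is not given. The depth of this test was limited, since the 95% interval of a host's difference extended by a median of 0.809 to 0.837 on the log2 scale to either side. The response of MIR22HG differed by 0.09 between SoF GR and wt GR with an interval from -0.39 to 0.56, and that of MIR17HG by -0.49 with an interval from -1.03 to 0.05.

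The third question was whether the lines differed in host synthesis irrespective of time. Over the 8 libraries of each line, 4 hosts differed between SoF GR and wt GR (beside 8.02% of 21122 genes tested), 2 between Ctrl GR and wt GR (beside 4.77%) and 3 between SoF GR and Ctrl GR (beside 3.61%). Time was left out of this fit, as in the study, so changes over time add to its spread. With an additive time term the host counts were 16, 11 and 7, for which the share of all genes is not given. The 0 h libraries alone gave 0 hosts in all 3 comparisons by the edgeR quasi-likelihood test (beside 0.347%, 0.309% and 0.347% of all genes). At an unadjusted p under 0.05 there were 11, 10 and 4 of 44 hosts, beside 4216, 3559 and 1675 of 23651 genes. The DESeq2 results of the 0 h comparisons are not reported here.

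MIR155HG stood lowest in SoF GR. Its levels were 0.607 to 3.69 CPM (median 2.48) in wt GR, 0 to 1.11 CPM (median 0.421) in SoF GR and 0.851 to 3.53 CPM (median 2.11) in Ctrl GR. The ranges overlap because the host also fell with time, and at every time point both SoF GR libraries were below all libraries of the other lines. The log2 difference was -2.18 (SE 0.48, adjusted p = 0.00635) against wt GR and -2.17 (SE 0.48, adjusted p = 0.00776) against Ctrl GR by the edgeR quasi-likelihood test, and it was called whichever library was left out.

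The 2 hosts with the same mature strand miR-9-5p, a microRNA of neural cells, were both higher in a mutant line than in wt GR. MIR9-1HG (chr1:156404250-156456763, minus strand) was at 1.47 to 2.62 CPM in wt GR, at 3.27 to 4.86 CPM in SoF GR and at 2.12 to 3.48 CPM in Ctrl GR. SoF GR did not overlap wt GR, with a log2 difference of 0.89 (SE 0.13, adjusted p = 0.000185, edgeR). Against Ctrl GR the difference was 0.52 (SE 0.13, adjusted p = 0.0263), and that call was lost without SoF GR 0 h replicate 2 (0.49), SoF GR 2 h replicate 1 (0.48) or Ctrl GR replicate 2 at 1, 2 or 3 h (0.46, 0.50 and 0.48), and without all 0 h libraries numbered 2 (0.49) or the low-count filter (0.50). MIR9-3HG (chr15:89361579-89424983, plus strand) was at 2.06 to 4.71 CPM in wt GR, at 4.3 to 6.12 CPM in SoF GR and at 3.96 to 7.47 CPM in Ctrl GR. It was higher by 0.68 (SE 0.18, adjusted p = 0.0202) in SoF GR and by 0.89 (SE 0.18, adjusted p = 0.0042) in Ctrl GR. The former was not called without all 0 h libraries numbered 1 (0.61) or 2 (0.66), or without the low-count filter (0.65). The Ctrl GR libraries of MIR9-3HG fell into a higher and a lower set by replicate number, at 7.18 to 7.47 and 3.96 to 4.75 CPM. Neither host changed with dexamethasone past the threshold (log2 -0.14 and -0.15 at 3 h).

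MIR3667HG was higher in SoF GR (4.21 to 5.82 CPM) than in Ctrl GR (2.24 to 3.73 CPM) without overlap, by 0.72 (SE 0.14, adjusted p = 0.00207, edgeR). MIR4435-2HG was higher in SoF GR than in wt GR by 0.63 (adjusted p = 0.0451), a call lost when any of 13 libraries was left out (0.51 to 0.63) or all 0 h libraries numbered 1 (0.66) or 2 (0.57), and its difference of 0.62 between Ctrl GR and wt GR did not pass (adjusted p = 0.062). MIR1302-9HG was lower in Ctrl GR than in wt GR (log2 difference -0.70, adjusted p = 0.0418), a call lost without any of 12 libraries (-0.72 to -0.64) or without all 0 h libraries numbered 1 (-0.65) or 2 (-0.60); it belongs to a family of near-identical subtelomeric copies whose reads cannot be assigned with confidence.

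**Figure D5:**
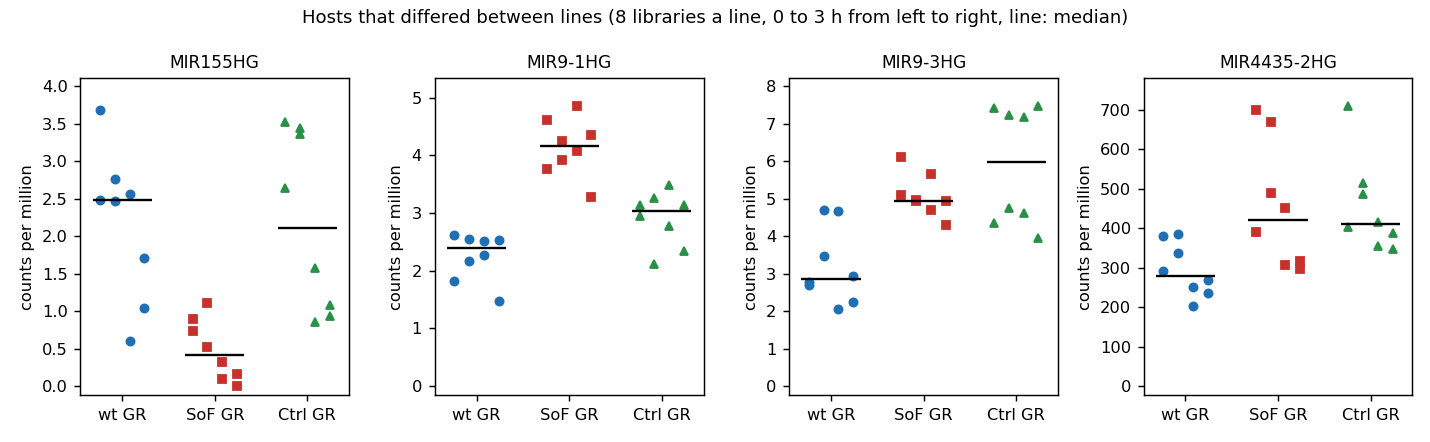
Levels in CPM of 4 hosts in the 8 libraries of each line, ordered from 0 to 3 h within a line, with the median as a bar. MIR155HG has a median of 0.421 CPM in SoF GR against 2.48 in wt GR, and MIR9-1HG has a median of 4.16 against 2.4 CPM.

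The rule did not use where the microRNA lies. RefSeq places a microRNA on the same strand within 73 of the 84 hosts and within 41 of the 45 that met the count minimum; these 41 hold 72 microRNAs, 39 in exons and 33 in introns. The 7 hosts that rose hold 14, of which 7 are exonic, and 16 of the 17 that fell hold 34, of which 20 are exonic. The hosts that rose had a median genomic span of 29.7 kb (2.8 to 118 kb) and those that fell one of 45.5 kb (0.949 to 718 kb), while the 20 not called had one of 45.6 kb (1.56 to 869 kb). Among all genes tested the medians were 22.1 kb for genes that rose, 28.6 kb for genes that fell and 14.8 kb for genes not called. These are descriptions of positions, with no test. Of the 45 hosts, 24 overlap an exon on the other strand and 7 one on the same strand.

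The processing machinery was read in the same libraries from 30 genes, 29 of which were tested. At 3 h, 7 were higher and 5 lower, beside 20.9% higher and 19.3% lower over all genes. The exporter XPO5 was higher by 0.72 (SE 0.09), the slicing Argonaute AGO2 by 0.65 (SE 0.10) and the Argonaute partner TNRC6A by 0.37 (SE 0.09). The uridylating enzyme TUT7, which marks let-7 precursors, was lower by -0.81 (SE 0.09), the silencing scaffold TNRC6B by -0.73 (SE 0.09) and the DROSHA cofactor DDX5 by -0.27 (SE 0.07). DICER1 was higher by 0.41, and DROSHA had a change of 0.03 that did not pass. The median over the list was -0.04, beside -0.03 over all genes.

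Of 40 further genes that carry a microRNA but are named for their protein or lncRNA, 38 were tested, and at 3 h 14 were higher and 9 lower with a median of 0.14, beside 20.9% higher, 19.3% lower and a median of -0.03 over all genes. The phosphatase gene CTDSPL, host of miR-26a-1, rose by 1.15 (SE 0.09) from 19.2 to 31.2 CPM at 0 h to 49.1 to 63.5 CPM at 3 h. Against 0 h, the coactivator gene PPARGC1B, host of miR-378a, was lower by 1.11 (SE 0.16, adjusted p = 1.34e-05, edgeR) at 2 h and higher by 1.55 (SE 0.14) at 3 h. The homeobox gene HOXB3 rose by 0.89 (SE 0.09) at 3 h. LARP7, an RNA-binding protein gene with the miR-302 cluster inside it on the other strand, fell by 0.58 (SE 0.11), DNM3OS, host of miR-199a-2 and miR-214, by 0.82 (SE 0.18), and SREBF1, host of miR-33b, by 0.49 (SE 0.12).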

How the data were processed

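The deposited table holds counts per gene over exons, made by the authors from paired 4sU-seq reads. They tagged molecular identifiers with UMI-tools 1.1.2, trimmed with Trim Galore 0.6.6, aligned to hg38 with STAR 2.7.3a, removed duplicates and counted with featureCounts on GENCODE 39. Gene symbols came from GENCODE 44 of the same build (61369 of 61533 IDs matched, 99.7%). Columns were assigned to samples by their labels, and 0 columns were left out. Counts were normalised by TMM and fitted in edgeR 4.0.16 (R 4.3.3), in 1 model of the 12 groups (23651 genes after filterByExpr) and 1 of the 3 lines (21122 genes), with quasi-likelihood tests and Benjamini-Hochberg adjustment over all genes tested. CPM values use TMM library sizes. On simulated counts for 23651 genes, 99% of genes changed by 1 on the log2 scale were recovered in the 3 h comparison averaged over lines, 72% in SoF GR at 3 h alone and 27% in the 3 h difference between SoF GR and wt GR. In the averaged comparison 15 unchanged genes were called as well. Few genes were changed in the simulation, whereas 40.3% were called in the data. The simulated libraries were also independent, whereas the 0 h libraries of equal number deviated together. Recovery under such conditions was not measured. The changed genes were drawn only from genes with higher mean counts than hosts such as MIR155HG, MIR210HG and MIR9-1HG. Recovery for hosts with so few counts was not measured and may be lower. Alternatives were other size factors, filters, DESeq2 1.42.0, a replicate block, an additive time term, and leaving out libraries; leaving out all 0 h libraries of 1 number and using 1 h as the reference were chosen after seeing the data. Named hosts were MIR22HG, MIR17HG, the 10 most abundant and any called; from the lists, up to 3 genes a direction with the smallest p; DICER1 and DROSHA were added after their values were seen. The members and lists were chosen with earlier results of these data known.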

Additional observations from a re-analysis of the deposited data

How the results depend on the processing

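The count of hosts called in the 3 h comparison averaged over lines stayed between 18 and 27 under every alternative, and between 21 and 25 when 1 library was left out. Without all 0 h libraries numbered 1 or numbered 2 it was 25 or 18, of which 21 and 16 were among the 24; with 1 h as the reference it was 27, of which 22 were. At 2 h it was 18 (14 to 20 leaving out 1 library) and 9 without the 0 h libraries numbered 2, and at 1 h it was 1 (1 to 3), 6 without the filter and 14 without those libraries. In wt GR at 1, 2 and 3 h the counts of 0, 0 and 1 became 3, 7 and 8 without the filter, 5 and 4 at 2 and 3 h without the 0 h libraries numbered 1, and 3, 1 and 3 without those numbered 2, with ranges of 0 to 1, 0 to 2 and 1 to 3 leaving out 1 library; DESeq2 gave 1 and 2 at 1 and 2 h. In SoF GR the counts of 1, 5 and 18 became 2 and 10 without the filter at 1 and 2 h, 0 with RLE size factors at 1 h, 0 and 11 without the 0 h libraries numbered 1 at 1 and 2 h, and 5, 2 and 7 without those numbered 2, with ranges of 0 to 1, 0 to 6 and 5 to 18. In Ctrl GR at 2 and 3 h the counts of 4 and 7 became 9 and 12 without the filter, 14 and 15 without the 0 h libraries numbered 1, and 0 and 2 without those numbered 2, with ranges of 0 to 12 and 1 to 14. Between lines, the counts of 4 (SoF GR against wt GR), 2 (Ctrl GR against wt GR) and 3 (SoF GR against Ctrl GR) became 16, 11 and 7 with an additive time term and 0, 0 and 0 in the 0 h libraries alone, and the first 2 became 2 and 1 without the filter, 2 and 1 without either set of 0 h libraries, with ranges of 3 to 5, 1 to 4 and 2 to 3. The labels give no shared source for equal replicate numbers, and over 66 pairs of groups the correlation of same-numbered deviations ran from -0.22 to 0.57, with 21 above 0.1, so the numbers were not taken to pair all samples; between the 0 h groups it was 0.39 to 0.57. With the replicate number as a block, wt GR had 2 hosts at 2 h and 2 at 3 h, the Ctrl GR against wt GR comparison had 4, and the 3 h comparison averaged over lines had 25. Changes of sign were seen for MIR222HG at 2 h (-0.02 with 1 h as the reference) and 3 h (-0.26 with 1 h as the reference, -0.00 without the 0 h libraries numbered 1), MIR3936HG at 2 h (-0.43 with 1 h as the reference), MIR663AHG at 3 h (0.23 without the 0 h libraries numbered 1) and MIR34AHG at 3 h (0.05 without those, and -0.11 to 0.06 leaving out 1 library). The causes were not tested. For most alternatives in this paragraph the share of all genes called is not given. A shift in a host count therefore cannot be set against the shift over all genes. Over all alternatives for single hosts, 2593 values kept direction and call, 307 lost the call, 4 gained it and 12 changed sign. Many of these fits left out a library that was not in the comparison, and abundant hosts without a call were included. The tally is therefore not a measure of how firm the calls are. With 2 libraries a group, the differences in response between lines were the least precise results.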

Other observations

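The 39 hosts under the count minimum gave few counts in these cells. MIR31HG, the host of miR-31, had 0 to 7 counts a library, MIR302CHG, the host of stem-cell microRNAs, 0 to 10, and MIR205HG, an epithelial host, 0 to 6. MIR142HG and MIR223HG, hosts of blood-cell microRNAs, had 0 to 3 and 0 to 1, and MIR122HG, the liver host, 0 to 2. MIR194-2HG met the minimum with 0 to 12 counts a library but was not tested.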
